A study of Rattus norvegicus with 14 samples.

Results

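A CpG reads the same on both strands of the double helix, so each CpG site holds a pair of cytosines, here called a dyad. The dyads described here are those for which both cytosines were read by reduced representation bisulfite sequencing of rat oesophagus. A dyad was kept when the lower position (p) and the next position (p+1) each had at least 10 reads in the same library, in at least 3 libraries of each group, on chromosomes 1 to 20. This left 1225 dyads, whose 2450 cytosines were 2.24% of the 109170 cytosines that passed the same depth rule on their own. The libraries fell into 3 groups, all of male rats aged 8 to 9 weeks. The non-surgical controls (NSC, 4 libraries) were full-thickness oesophagus, the day 1 group (5 libraries) was host tissue within 2 mm of the defect margin after repair with a bi-layer silk fibroin graft, and the week 1 group (4 libraries) was new tissue from the graft area on day 7. A further week 1 sample was not analysed here. The groups therefore differ in the piece of tissue taken as well as in time, and these cannot be told apart. Bulk tissue also mixes cell types, so a change within cells and a change in the mix of cells cannot be told apart. Whether each library is a different animal is not stated, and the spread that the p-values rest on may be partly technical. The codes of the samples follow the groups, and an effect of processing order and one of group cannot be told apart.

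CpG methylation is copied at cell division by the maintenance enzyme DNMT1, which with its partner UHRF1 recognises a CpG methylated on the old strand and methylates the new one. A site with one methylated and one bare strand is called hemimethylated. Bisulfite converts unmethylated cytosine to uracil and leaves methylated cytosine, and the strands of one molecule are read separately in such libraries. The level on each strand is therefore an average over molecules, and equal levels on both strands do not show that single molecules were methylated on both.

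The files give no strand. The cytosine at p was taken as that of the forward strand and p+1 as that of the reverse strand. All positions are on mRatBN7.2. No gene, repeat or base sequence was assigned to them, and whether each pair is a CpG was not checked against a genome sequence. Of the dyads, 1159 were isolated pairs of listed positions and 66 lay in longer runs of consecutive positions. Reads summed over listed cytosines of chromosomes 1 to 20 ran from 9007170 (day 1 replicate 2) to 47558937 (NSC replicate 1). The number of dyads with 10 reads on both strands ran from 497 to 1207 in the same libraries, and the median reads on a strand from 22 to 49. All 13 libraries covered 289 dyads on both strands. Intervals were not given for single levels. Reads carry no molecular identifiers, so counting error is the only error that read numbers give.

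Dyads read on both strands were gathered in a few stretches of the genome. Chromosome 3 held 331 dyads, 27.0% of them, against 8.16% of all cytosines with the same depth. Chromosome 19 held 11.1% of dyads and 3.45% of cytosines, and chromosome 10 held 0.653% of dyads and 6.52% of cytosines. Dyads no more than 100 kb apart formed 275 clusters, of which 162 were a single dyad. The 10 largest clusters held 620 dyads, 50.6% of the whole. The largest, chr3:845010-1259736, held 160 dyads with a median level of 82.0%, and the next, chr3:1471866-1604238, held 101 with a median of 79.0%. A smaller stretch, chr1:55012806-55069705, held 70 dyads, which made up 58.8% of its cytosines. Not every cluster was highly methylated. At chr19:48721578-48721669 all 28 cytosines belonged to 14 dyads with a median level of 0%, and the 24 dyads of chr4:598264-719429 had a median of 4.26%.

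**Figure D1:**
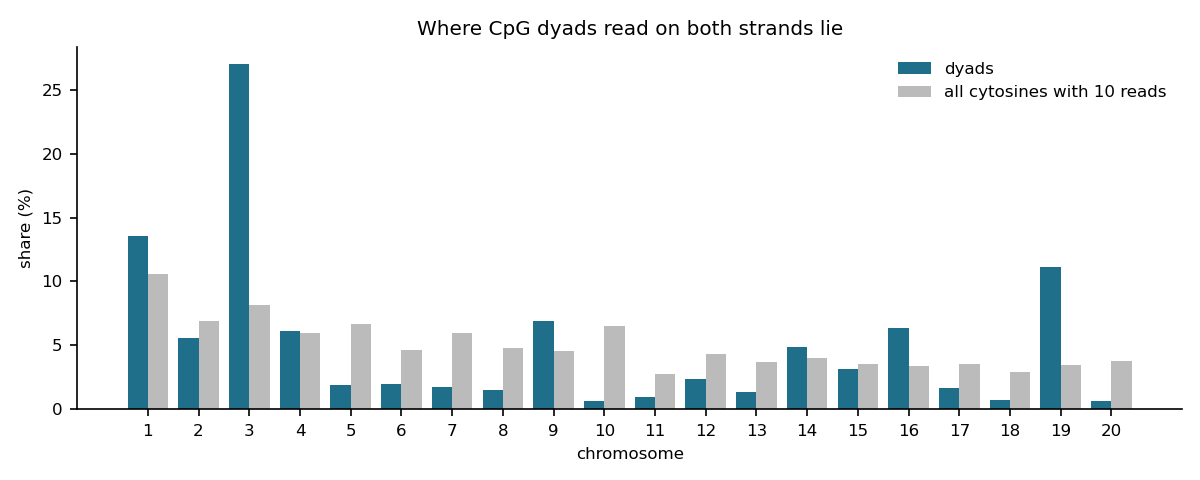
Bars give the share (%) of the dyads (blue) and of all cytosines with 10 reads in 3 libraries of each group (grey) on each of chromosomes 1 to 20. Chromosomes 3 and 19 hold 27.0% and 11.1% of dyads against 8.16% and 3.45% of cytosines.

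The dyads differed from other cytosines in depth, which the choice of dyads used, and also in the spread of their levels. Their cytosines had a median depth of 29.5 reads, against 21 at the 106720 others. In 485 dyads (39.6%) a cytosine was in the top 0.1% of coverage in at least 1 library, against 6.17% of the other cytosines. A dyad counted through either of its cytosines and another cytosine only through itself, so these shares are not strictly comparable. Of the 289 dyads covered in every library, only 71 had no such cytosine. Read numbers on the strands were often unequal, differing by at least 2-fold in 427 dyads (34.9%). A median of 4 listed CpG positions lay within 100 bp of a dyad and 3 near other cytosines. The median level was 79.4% for dyads and 79.7% for the others, but the levels were spread differently. Levels under 10% were seen at 10.7% of dyads and 21.002% of other cytosines, levels of 70 to 90% at 44.4% and 29.6%, and levels of 90 to 100% at 22.7% and 30.3%. The level of a dyad was the mean of both strands, and that of another cytosine was its own. Averaging strands can move values out of the end classes, and its part in these shares was not tested. Of the other cytosines, 25.7% had no listed partner in any library, and for 39.6% the partner had 10 reads in at least 1 library. The dyads are thus the deeper part of the CpGs sampled and no random sample of them.

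Reads pooled over all libraries gave closely similar levels on the strands of most dyads. The strand difference (percent at p minus percent at p+1) was under 5 points in size at 856 dyads (69.9%), under 10 points at 1109 (90.5%) and under 20 points at 1205 (98.4%). It had no preferred sign. The difference was positive at 596 dyads, negative at 608 and zero at 21, with a median of 0 and middle quartiles at -2.83 and 2.79 points. Of the 20 dyads at 20 points or more, 10 were higher at p and 10 at p+1. Only 9 reached 30 points, 6 reached 40 and 2 reached 60.

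**Figure D2:**
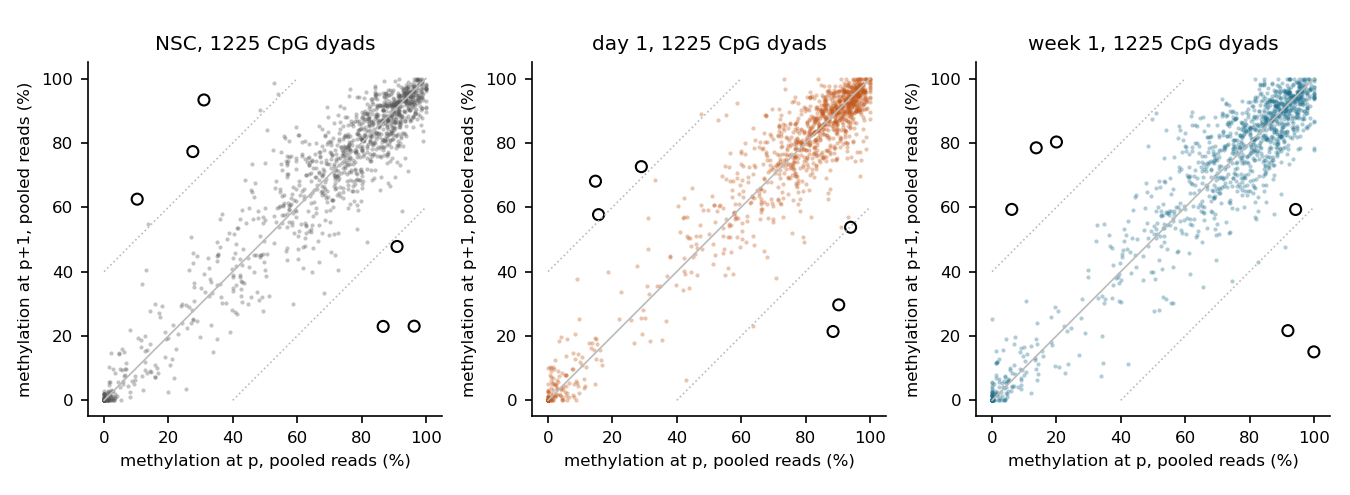
Each point is 1 of 1225 dyads, with the methylation (%) of reads pooled within a group at p on the x axis and at p+1 on the y axis, for NSC, day 1 and week 1. The solid line marks equal levels and the dotted lines a difference of 40 points. Open circles are the 6 dyads at 40 points or more over all libraries, which lie far off the line in each group.

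Within single libraries the strands differed more than in the pooled reads. From 52.5% to 69.0% of a library's dyads were within 10 points, and 0.602% to 3.21% were 40 points or more apart. The lowest share within 10 points was in week 1 replicate 3 and the highest in day 1 replicate 4. Pearson's r between the levels at p and at p+1 ran from 0.784 (497 dyads, day 1 replicate 2) to 0.912 (1207 dyads, NSC replicate 1), as a description across dyads that share a library. The mean squared strand difference was 2.27 to 3.47 times the binomial counting error in every library. The strand difference was thus larger than binomial counting error in all 13 libraries.

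Disagreement varied with the level of the dyad. With counting error removed, the standard deviation (SD) of the strand difference in the median library was 4.32 points at dyads under 10% (10.7% of the whole) and 6.22 points at the 278 dyads at 90 to 100%. It was 11.9 points at the 544 dyads at 70 to 90% and 18.6 points at the 234 dyads at 30 to 70%, where libraries ran from 14.8 to 22.3 points. At the 38 dyads of 10 to 30% it was 13.2 points, with libraries from 8.26 to 23.7. The median library was thus highest at 30 to 70%. The classes were set by the mean of both strands in pooled reads, which places dyads with strands far apart in the middle classes.

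The strands of a library differed about as much as libraries of one group did on the same strand. Over the 289 dyads covered in every library, with counting error removed, the SD between strands was 10.4 ± 1.69 points in NSC (SD, n = 4), 9.84 ± 1.83 at day 1 (SD, n = 5) and 10.7 ± 1.82 at week 1 (SD, n = 4). The SD between pairs of libraries at the same strand was 10.2 points in NSC, 9.90 at day 1 and 10.01 at week 1. The closest pair of libraries within a group differed by 7.21 points, within the 6.79 to 12.9 points seen between strands of single libraries. All 13 libraries differed in their total of reads, and each was counted as a sample, as the labels give it. These SDs were not tested against each other.

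A difference of 40 points or more in pooled reads picked out 6 dyads, 3 higher at p and 3 higher at p+1. These values chose the dyads and are given as a description. The largest difference was at chr9:113828423-113828424, with 96.1% of 283 reads methylated at p and 23.1% of 376 reads at p+1. Its strand difference in NSC was 59.3, 77.8, 81.6 and 92.5 points, at day 1 it was 96.2, 58.5 and 37.0 points, and at week 1 it was 85.3, 100 and 80.9 points. Each of the 10 libraries was higher at p, and the ranges of the groups overlapped. The dyad chr19:22742725-22742726 had 89.1% at p and 21.99% at p+1, and its difference ran from 35.5 to 86.8 points in 12 libraries. It was 61.1, 73.2, 68.5 and 59.9 points in NSC, 66.7, 35.5, 67.6 and 70.2 points at day 1, and 62.9, 70.9, 86.8 and 55.1 points at week 1. It was again higher at p in every library, with day 1 replicate 3 the lowest. This was the only one of the 6 in the top 0.1% of coverage in a library.

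The dyad chr3:464020-464021 lay just inside the limit, at 40.3 points, with 93.2% at p and 53.0% at p+1. Its p+1 level stayed between 43.6% and 77.4% in 12 libraries while p was at 78.9% or more. The difference was 35.4, 50, 50 and 35.2 points in NSC, from 32.9 to 52.2 points in the 5 day 1 libraries, and 39.8, 22.6 and 50 points at week 1. Every library was higher at p. Just outside the limit lay chr3:1554207-1554208, at -38.4 points, with 51.8% at p and 90.2% at p+1.

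Among the dyads higher at p+1, chr19:22757579-22757580 had 13.4% at p and 69.8% at p+1. It lies in the same cluster as the other chromosome 19 dyad, chr19:22738270-22761712, where the strand with fewer methylated reads is the opposite one. Its difference was -40, -53.6 and -84.6 points in NSC, -81.8, -52.9 and -44.2 points at day 1, and -92.3, -33.5, -80 and -72.7 points at week 1. The dyad chr3:949826-949827 had 26.9% at p and 76.3% at p+1, and its difference ran from -83.3 to -34.7 points in 11 libraries. It was -50.4, -48.1, -67.0 and -35.5 points in NSC, -37.5, -57.7, -34.7 and -50.3 points at day 1, and -83.3, -63.3 and -49.6 points at week 1. Both dyads were higher at p+1 in every library that covered them.

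The dyad chr12:19080935-19080936 behaved otherwise from library to library. Pooled reads gave 20.3% at p and 76.7% at p+1, a difference of -56.4 points. In NSC the difference was 1.52, -70.7 and -89.8 points, at day 1 it was -55.0, -52.7 and 0 points, and at week 1 it was -75.6, -42.5 and 0 points. In NSC replicate 2 both strands were above 90%, at 94.4% and 92.9%, and in day 1 replicate 5 and week 1 replicate 4 both strands were at 0%. The strands thus agreed in 3 of 9 libraries and were over 40 points apart in the other 6, with no group showing one pattern alone. Only 1 listed cytosine lay within 100 bp, at 87.9%.

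**Figure D3:**
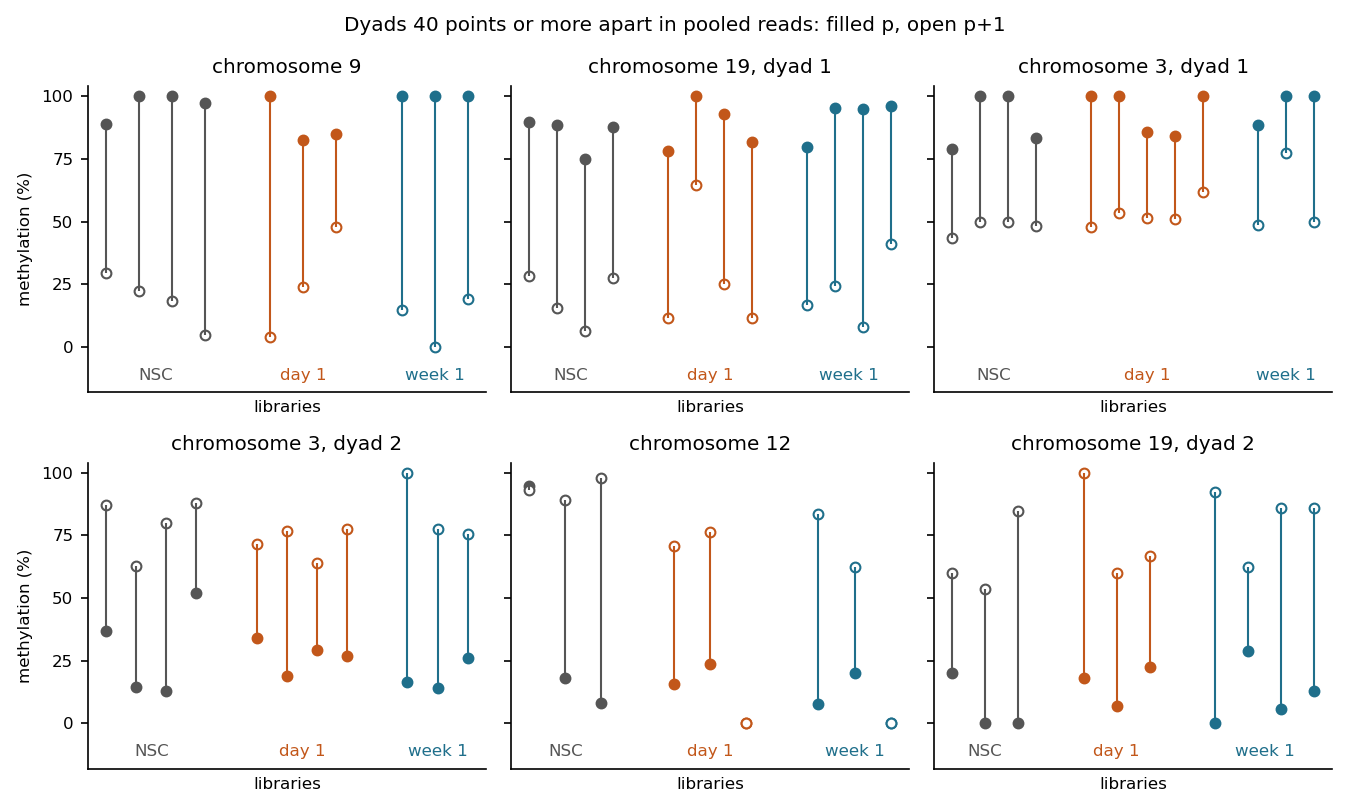
Methylation (%) at p (filled) and p+1 (open), joined by a line, in each library with 10 reads on both strands, for the 6 dyads 40 points or more apart in pooled reads; colours give the group. In 5 dyads every library has the same strand higher, and in the chromosome 12 dyad 3 of 9 libraries have both strands at nearly the same level.

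The following counts rest on the same reads that chose these dyads and describe them only. Of 64 library values at the 6 dyads, 61 had the sign of the pooled difference and 48 were at 40 points or more with that sign. In 6 of 6 the lower strand was below every neighbouring cytosine listed within 100 bp, whose lowest levels ran from 52.0% to 87.9%. The higher strand lay within the range of its neighbours in 3 of 6. None of the 6 was covered in all 13 libraries. Without positions in the top 0.1% of coverage, 740 dyads were left, and 5 were at 40 points or more, all of them among the 6. The count of 6 rests on the depth rule and on which libraries are pooled. It was 2 without day 1 replicate 1, 3 without day 1 replicate 5, NSC replicate 2, or week 1 replicates 2, 3 or 4, and 4 without NSC replicates 3 or 4, day 1 replicate 4 or week 1 replicate 1. Leaving out a library also left fewer dyads, 656 to 1214 of 1225, because of the rule of 3 libraries per group.

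To see whether differences found in one group recur in libraries that did not choose them, dyads were chosen again from NSC reads alone. There were 10 dyads at 40 points or more in pooled NSC reads, and they included all 6 above. Of these, 9 had the same sign in pooled reads of both day 1 and week 1. In size, 7 were at 40 points or more at day 1 and 5 at week 1. The median difference, taken in the direction seen in NSC, was 47.9 points in NSC, 41.7 at day 1 and 45.5 at week 1. The 9 include chr1:55034365, which kept its sign but not its size, at -41.0 points in NSC, -0.586 at day 1 and -2.5 at week 1. There 4 of 9 libraries after surgery had the sign seen in NSC. The sign changed at chr19:21913052, which was at -41.4 points in NSC, -35.3 at day 1 and 8.15 at week 1.

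The design also asks whether the tissue taken after surgery differs from the control in how far the strands disagree. At the 289 dyads covered in all libraries, the mean level of both strands was higher at day 1. At p it was 70.3% ± 0.986 in NSC (SD, n = 4), 75.1% ± 1.18 at day 1 (SD, n = 5) and 72.5% ± 1.57 at week 1 (SD, n = 4). At p+1 it was 70.6% ± 0.880, 75.5% ± 0.706 and 73.0% ± 0.987. The day 1 libraries lay above the NSC libraries by 4.84 points on each strand with no overlap (exact two-sided permutation tests, adjusted p = 0.0317 over 6 tests; n = 5 and 4). Week 1 was above NSC by 2.19 points at p and 2.32 at p+1, with an adjusted p of 0.0571 for both in the exact permutation tests. Week 1 against day 1 was -2.51 points at p+1 (adjusted p = 0.0317, exact permutation test), where the groups did not overlap. The change from day 1 at p was -2.64 points with an adjusted p of 0.0571 in the exact permutation test.

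The size of strand disagreement was not shown to differ between groups. The SD of the strand difference with counting error removed was 8.25, 9.83, 12.1 and 11.3 points in the NSC libraries, 11.6, 10.8, 10.2, 6.79 and 9.86 points at day 1, and 8.54, 10.2, 12.9 and 10.96 points at week 1. The groups overlapped throughout. The difference of means was -0.517 points for day 1 against NSC, 0.306 for week 1 against NSC and 0.823 for week 1 against day 1, with an adjusted p of 0.968 for each (exact permutation tests, 12 in the family). With 10 reads drawn per strand, which sets every strand to the same depth, the mean absolute difference was 15.1 ± 1.04 points in NSC (SD, n = 4), 13.8 ± 0.495 at day 1 (SD, n = 5) and 15.2 ± 1.02 at week 1 (SD, n = 4). Day 1 against NSC was -1.35 points (exact permutation test, p = 0.0635, adjusted p = 0.254) and week 1 was higher than day 1 by 1.45 points (exact permutation test, p = 0.0317, adjusted p = 0.254). With another seed for the draw, day 1 against NSC was -0.471 points. It was -2.21 points over isolated pairs only and -2.04 without the top 0.1% of coverage, where 71 dyads were left. With at least 20 reads, where 78 dyads were left, it was -0.859 points. It was -0.782 with each library's own dyads, -0.901 without day 1 replicate 1 and -0.687 without day 1 replicate 5. Week 1 against day 1 ran from -0.0775 to 1.99 points over 20 alternatives, and its sign changed in 1 of them.

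The share of dyads 40 points or more apart after the same draw was 9.34% in NSC, 7.13% at day 1 and 9.17% at week 1. Day 1 against NSC was -2.21 points (exact permutation test, p = 0.0635, adjusted p = 0.254). It was -1.18 points with another seed and -5.56 over the 71 dyads left without the top 0.1% of coverage. It was -0.940 without NSC replicate 4, -1.27 without day 1 replicate 2 and -0.687 without day 1 replicate 5. The higher levels at day 1 moved with these lower values, and their part in them was not tested. The mean signed difference was -0.337 points in NSC, -0.336 at day 1 and -0.465 at week 1, and its 3 comparisons had an adjusted p of 0.968 (exact permutation tests). None of the 12 tests passed after adjustment, and the exact test cannot give less than 0.0159 for 5 libraries against 4 and 0.0286 for 4 against 4. Over 12 tests, a single exact permutation test at 0.0159 has an adjusted p of 0.190. A difference in 1 comparison alone could therefore not have passed.

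**Figure D4:**
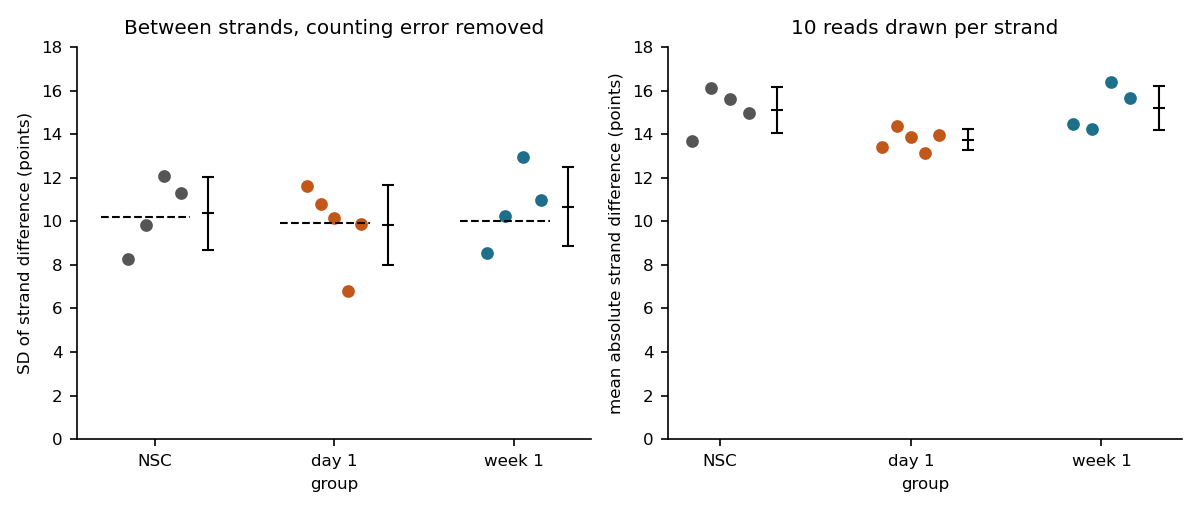
Points are libraries by group, over the 289 dyads covered in all of them; crosses with bars give the mean and SD. The left plot gives the SD of the strand difference with counting error removed, in points, with the SD between libraries of the group as a dashed line, and the right plot the mean absolute strand difference with 10 reads drawn per strand. The groups overlap in the left plot, and day 1 lies lowest on average in the right one.

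No single dyad was shown to change its strand difference between groups. In the edgeR test of strand by group, 0 of 1225 dyads were called in each of the 3 contrasts, a share of 0%. At an unadjusted edgeR p below 0.05 there were 53 dyads (4.33%) for day 1 against NSC and 57 (4.65%) for week 1 against NSC. For week 1 against day 1 there were 45 (3.67%). These shares are no larger than chance alone gives at that limit. With limma 0 dyads were also called in each contrast. The libraries of the groups did not overlap in strand difference at 37 dyads (3.02%), 48 (3.92%) and 46 (3.76%). The smallest adjusted p was 0.652 in edgeR, shared by several dyads for day 1 against NSC. Among them chr19:21911478 had mean strand differences of 12.01 points in NSC, -26.9 at day 1 and 1.74 at week 1, and its groups did not overlap between NSC and day 1. Of the 6 dyads at 40 points or more, the smallest unadjusted p was 0.00877, for week 1 against day 1, with an adjusted p of 1.

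Methylation of the dyads was then compared with each strand as its own measurement. For day 1 against NSC, 35 of 2450 dyad cytosines (1.43%) were called by edgeR, against 5.02% of all cytosines. For week 1 against NSC it was 16 (0.653%) against 2.81%, and for week 1 against day 1 it was 0 against 0.0568%. The share of dyad cytosines called was below that of all cytosines. By direction, 1.06% of dyad cytosines were higher and 0.367% lower at day 1, against 3.65% and 1.37% of all cytosines. At week 1 it was 0.490% and 0.163%, against 1.84% and 0.968%, and for week 1 against day 1 the shares of all cytosines were 0.0229% and 0.0339%. Groups did not overlap at 8% of dyad cytosines for day 1 against NSC and at 15.1% of all cytosines. For week 1 against NSC it was 7.10% and 13.1%, and for week 1 against day 1 it was 3.88% and 4.55%. Groups separate more easily by chance where fewer libraries were measured. The number of libraries per cytosine was not matched between dyad cytosines and all cytosines, so these shares are not strictly comparable. The median change per strand at day 1 was 2.73 points at p and 3.10 at p+1, against 2.27 for all cytosines. At week 1 it was 0.969 at p and 0.697 at p+1, against 0.926, and for week 1 against day 1 it was -1.76 and -2.01, against -0.418.

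Where a change was called on both strands, it had the same direction on both. At day 1, 5 dyads were higher and 3 lower on both strands, at week 1 1 was higher, and 0 were called in opposite directions in any contrast. The strand difference of these dyads changed by -15.6 to 11.8 points, while the levels of single strands changed by up to 59.8 points upwards and by -72.0 points downwards. Neighbouring dyads share reads, so the pairs on chromosome 6 and at chr1:97081757 and chr1:97081763 are not independent of each other.

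The dyad chr6:40229126-40229127 fell the most at day 1. At p it was at 60.7%, 69.2%, 88.6% and 100% in NSC, 0%, 0%, 15.4% and 15% at day 1, and 35.7%, 28.6% and 6.67% at week 1. At p+1 it was at 79.5%, 73.5%, 81.0% and 58.1% in NSC, 15.8%, 6.67%, 13.3% and 14.8% at day 1, and 46.7%, 25%, 29.4% and 17.1% at week 1. Each library after surgery lay below each NSC library on both strands. The change at day 1 was -72.0 points at p (edgeR adjusted p = 4.68e-05) and -60.4 at p+1 (adjusted p = 0.000797). At week 1 the edgeR adjusted p was 0.0456 at p and 0.0528 at p+1, so only p was called. The dyad chr6:40229113-40229114 had means of 78.9% ± 10.96 (SD, n = 3) at p and 76.5% ± 5.22 (SD, n = 4) at p+1 in NSC, and of 14.9% ± 3.07 (SD, n = 4) and 14.9% ± 10.2 (SD, n = 4) at day 1. Both chromosome 6 dyads were called on both strands under each alternative in which they were measured.

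The third dyad that fell at day 1, chr1:74468033-74468034, was uneven among controls. At p the NSC libraries were at 57.1%, 35.6%, 0% and 92.9%, and the day 1 libraries at 0% in 4 of 5 and 54.5% in replicate 2. The groups overlapped on both strands. The mean change over both strands was -35.1 points, and -18.8 points without NSC replicate 4, when the larger edgeR adjusted p of the strands was 0.174. It was also above 0.05 without NSC replicate 1 (0.0540), NSC replicate 2 (0.0893) or day 1 replicate 4 (0.0533).

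The dyads higher at day 1 had low to middle levels in NSC. At chr15:97390299-97390300 p was at 30.4%, 22.5%, 43.9% and 17.2% in NSC, 91.4%, 70.8%, 90% and 93.8% at day 1, and 47.1%, 40%, 60% and 75.6% at week 1. Day 1 lay above NSC with no overlap on either strand, by 58.0 points at p (edgeR adjusted p = 0.00200) and 47.6 points at p+1 (adjusted p = 0.0339). At chr10:102528398-102528399 p+1 was at 7.89%, 24.6%, 13.8% and 12.2% in NSC, 90.9%, 46.7%, 86.7% and 73.5% at day 1, and 70.2%, 91.7%, 76.9% and 88.9% at week 1. All libraries after surgery lay above NSC at p+1. At p the NSC libraries were at 4.17%, 0%, 23.3% and 22.7%, those of day 1 at 52.6%, 50%, 86.7% and 37.5%, and those of week 1 at 81.8%, 18.2% and 74.2%. Week 1 replicate 3 lay within the NSC range there, and week 1 was not called at p (edgeR adjusted p = 0.0691). The change at day 1 was 59.8 points at p+1 (edgeR adjusted p = 2.79e-05) and 44.1 points at p (adjusted p = 0.0419). The call on both strands there was lost without NSC replicate 1 (49.4 points, larger adjusted p 0.143), NSC replicate 2 (51.5, 0.159), day 1 replicate 1 (49.9, 0.0722), day 1 replicate 3 (57.7, 0.0572) or day 1 replicate 4 (44.9, 0.172).

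The other dyads higher at day 1 were on chromosome 1. At chr1:97081763-97081764 the mean at p was 38.4% ± 19.6 in NSC (SD, n = 4) and 86.8% ± 18.9 at day 1 (SD, n = 4), and at p+1 20.9% ± 11.8 and 71.1% ± 2.97. The dyad chr1:97081757-97081758 rose by 46.3 points at p and 51.1 at p+1, and chr1:254794542-254794543 by 42.4 and 53.6 points. The groups overlapped at p of the last of these, where day 1 replicate 5 was below the highest NSC library. Each of these 3 calls was lost without NSC replicates 1, 3 or 4 or day 1 replicates 1, 3 or 4. The mean change then lay between 43.3 and 51.8 points and the larger edgeR adjusted p between 0.0519 and 0.202.

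At week 1 chr14:17425947-17425948 was the dyad called on both strands. At p it was at 52.3%, 86.4%, 59.4% and 51.5% in NSC, 89.6%, 85.3%, 79.8% and 82.7% at day 1, and 86.7%, 95.7%, 90.2% and 94.3% at week 1. At p+1 it was at 62.5%, 59.5%, 60% and 41.2% in NSC and at 100% in each of 3 week 1 libraries. Week 1 lay above NSC on both strands, by 29.3 points at p (edgeR adjusted p = 0.00155) and 44.2 points at p+1 (adjusted p = 0.00732). The day 1 means, 84.4% at p and 90.7% at p+1, were not called against NSC (edgeR adjusted p = 0.0615 and 0.159). Reads per library ran from 51 to 453 at p and from 13 to 42 at p+1. The call held in the 10 alternatives in which the dyad was measured. Leaving out the top 0.1% of coverage, or asking for at least 20 reads, removed the dyad from the set. Stability under those settings was therefore not tested.

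**Figure D5:**
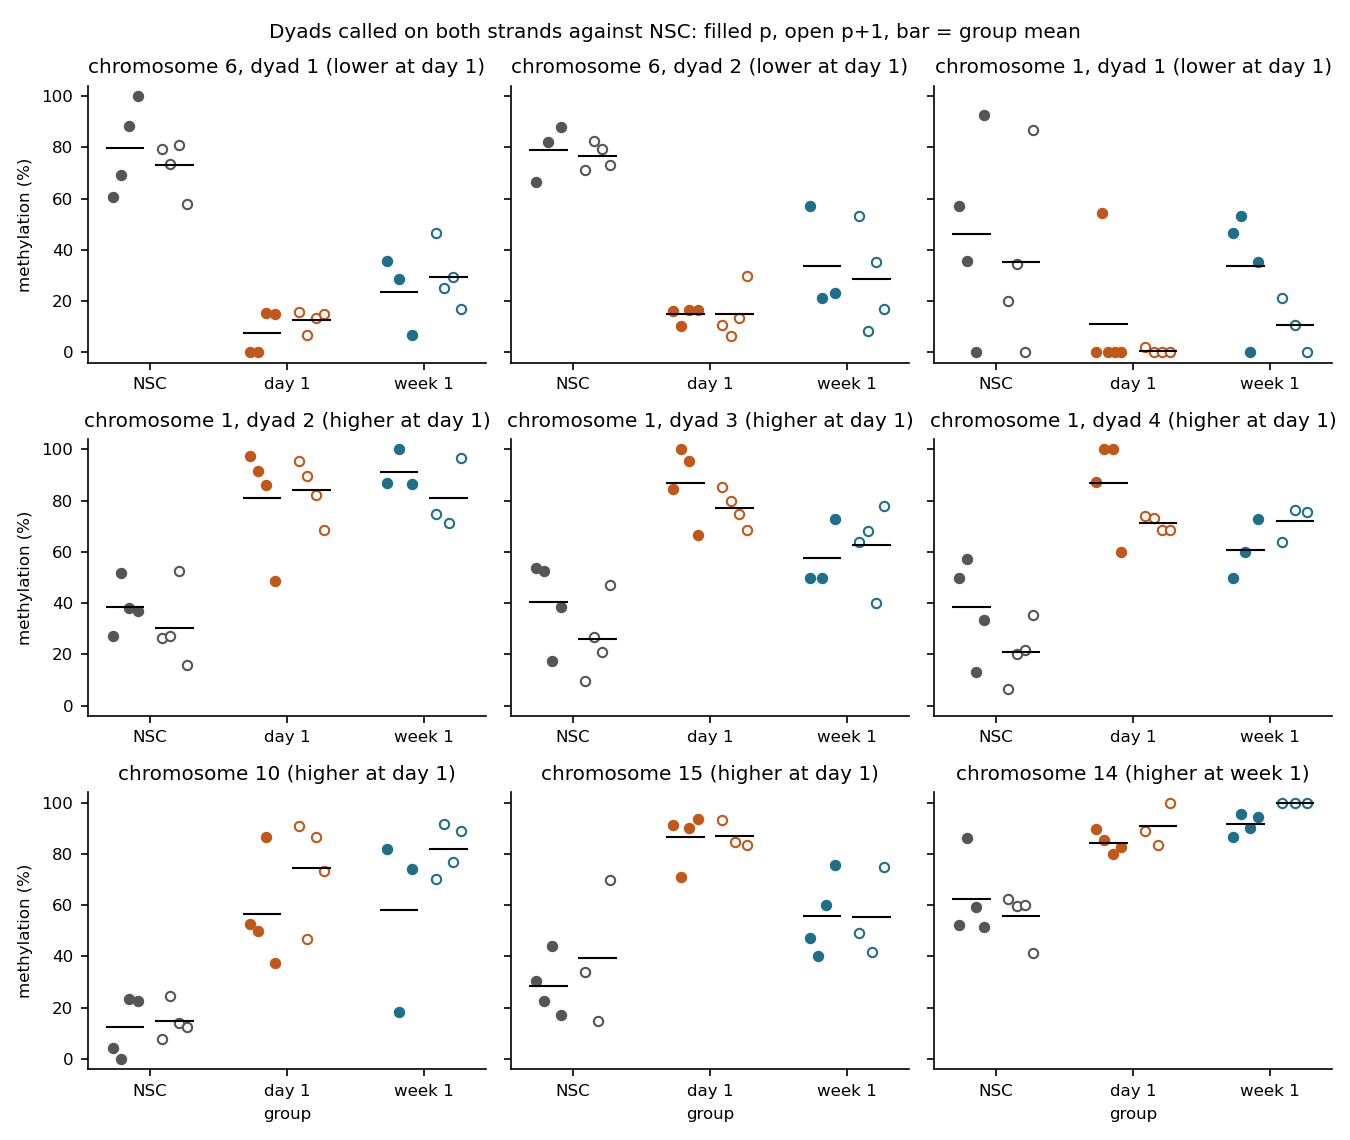
Methylation (%) at p (filled) and p+1 (open) by library and group, with the group mean as a bar, for the 9 dyads called on both strands against NSC. Both strands move the same way in each dyad; the chromosome 6 dyads are the lowest at day 1 relative to NSC, and the first chromosome 1 dyad has NSC libraries from 0% to 92.9% at p.

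More dyads were called on a single strand than on both. There were 19 such dyads for day 1 against NSC and 14 for week 1 against NSC, with 16 and 10 of them higher. The strand that was not called moved in the same direction in 18 of 19 and in 13 of 14. For these dyads the test of strand by group gave no adjusted p under 0.652 at day 1 and 0.714 at week 1 in edgeR, so their strands were not shown to change differently. The exceptions in sign were chr19:21911478, which changed by -27.0 points at p and 11.9 at p+1 at day 1, and chr3:1035437, which changed by 12.7 points at p and -2.40 at p+1 at week 1. At the chromosome 12 dyad, chr12:19080935, p+1 was called lower at week 1, with a change of -36.3 points (edgeR adjusted p = 0.0276), and p changed by -31.0 points (adjusted p = 0.382).

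Summing the reads of both strands called more dyads than the rule that each strand pass on its own. Against NSC it called fewer than had a call on at least 1 strand, which was 5 higher and 3 lower on both and 19 on 1 strand at day 1. With sums, 26 of 1225 dyads (2.12%) were called at day 1, 21 higher and 5 lower, against 4.98% over the 107945 dyads and other cytosines. At week 1 against NSC 11 dyads (0.898%) were called, 8 higher and 3 lower, against 2.82%. For week 1 against day 1 it was 1 dyad, 0.0816% against 0.0584% over the same set. These counts also moved when single libraries were left out. Some dyads then left the set through the rule of 3 libraries per group, and others were still measured but lost the call, as given above. The 5 dyads higher at day 1 became 0 without NSC replicate 1, day 1 replicate 4 or week 1 replicates 1 or 4. They became 1 without NSC replicate 3 or day 1 replicates 1 or 3, 2 without NSC replicate 4, 3 without NSC replicate 2 or week 1 replicates 2 or 3, and 8 without day 1 replicate 5. The 3 dyads lower at day 1 became 0 without week 1 replicates 2 or 3 and 1 without NSC replicates 1 or 2 or week 1 replicate 4. The 1 dyad higher at week 1 was not called without day 1 replicate 3 or week 1 replicates 3 or 4, and 2 were called without NSC replicate 3 or day 1 replicate 4. A dyad lower on both strands at week 1 was called, 1 in each case, without day 1 replicates 1, 4 or 5 or week 1 replicate 1.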

How the data were processed

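Per the labels' protocols, DNA was cut with MspI, fragments over 300 bp were discarded, and bisulfite conversion followed. The submitters' processing notes name mRatBN7.2, methylKit 1.14.2, Bismark 0.23.0, FastQC and Trim Galore, without roles. The deposited files give each cytosine's counts of methylated reads and of all reads, and its methylation percent. They list positions with at least 5 reads and carry no strand. The authors' deposited percent was not used; percent was recomputed from their deposited counts.

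Positions listed in any of the 13 libraries were joined into runs of consecutive positions. Even runs were split into pairs p and p+1 from their start, and 3 pairs in odd runs were left out. A library entered a dyad with at least 10 reads on both strands, except in the fit per cytosine. There each strand entered on its own depth, so the strands of a dyad could rest on different libraries. Counting error was removed from the spread of strand differences by subtracting the mean binomial variance. The draw of 10 reads per strand used a fixed seed. Methylated and unmethylated counts were tested with edgeR 4.0.16 (R 4.3.3) by quasi-likelihood with a common dispersion over all 3 groups: strand by group at the 1225 dyads, and group per cytosine at 109170 cytosines. Counts under 10 reads were set to 0 in both fits. Calls needed at least 10 points of difference and an adjusted p below 0.05 (Benjamini-Hochberg). Exact permutation tests over libraries were two-sided, with p as 2 times the smaller tail. That definition replaced one based on absolute differences after results had been seen. The scripts were tested on simulated data in which both strands of a library shared the added noise. That run therefore does not give the power of the strand by group test.

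The dyads, the rules and the named dyads were chosen with earlier results of these data known. The rule named dyads with the 3 largest pooled strand differences of each sign, those nearest 40 points, and the 3 largest changes of each sign among dyads called on both strands without overlap of groups. The remaining dyads called on both strands, the dyad cited for the strand test, the level tests, the level classes, linking at 100 kb, neighbouring cytosines, the spread between libraries and the summaries of depth were added after values were seen. Alternatives were minimum reads of 5 (with 5 drawn) and 20, leaving out the top 0.1% of coverage, limma 3.58.1, other limits, isolated pairs, summed strands, fits of only the groups compared and without each library in turn. Replicates were numbered in accession order and pair no libraries. No annotation or sequence of this assembly was used here. Python 3.11.15, numpy 2.4.6, pandas 2.3.3 and matplotlib 3.10.9 were used.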

Additional observations from a re-analysis of the deposited data

Results flagged for a closer look

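Among 60 sets of 4 or 5 values from libraries of one group, 7 held a library set apart from the others by Dixon's gap, and chance alone does this in about 1 of 20 sets. Day 1 replicate 1 had a mean signed strand difference of 1.13 points over the 289 dyads covered in all libraries. At chr19:22742725 day 1 replicate 3 had a strand difference of 35.5 points, the smallest of its group. At chr14:17425947 NSC replicate 4 was at 41.2% at p+1, below the other NSC libraries. At chr15:97390299 day 1 replicate 3 was at 70.8% at p. At chr1:74468033 day 1 replicate 2 was at 54.5% at p, where the other day 1 libraries were at 0%, and day 1 replicate 1 was at 2.27% at p+1. At chr6:40229113 day 1 replicate 3 was at 10.3% at p. No explanation of these values was tested.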

How the results depend on the processing

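The 12 comparisons of strand disagreement were recomputed under 20 alternatives; 0 of the 240 values passed, with a smallest adjusted p of 0.190 (exact permutation tests), which a single test at its smallest p of 0.0159 also gives over 12 tests, so this count says little about stability. Signs changed in 53. Day 1 against NSC kept its sign in 20 of 20 for the mean absolute difference and for the share at 40 points. For day 1 against NSC the mean absolute difference ran from -2.21 to -0.471 points. For week 1 against day 1 it ran from -0.0775 to 1.99 points, and its sign changed in 1 of 20. Leaving out the 6 dyads at 40 points or more was 1 of the 20 alternatives. It could only repeat the main values, because none of the 6 is among the 289 dyads compared. The exact permutation tests first used absolute differences, a definition replaced after results had been seen. Under that first definition the smallest adjusted p of the 12 exact permutation tests was 0.222. For the share at 40 points, day 1 against NSC, the exact permutation test then gave p = 0.0476, against 0.0635 as reported. For the mean absolute difference, week 1 against day 1, the exact permutation test then gave p = 0.0238, against 0.0317 as reported. The strand by group test called 0 dyads under each alternative run. The counts of dyads called on both strands moved. For day 1 against NSC, dyads higher (5 in the report) were 24 with a minimum of 5 reads, 2 with 20, 8 with limma and 21 with strands summed; leaving out libraries gave 0 to 8. Dyads lower (3) were 13, 0 and 5 with 5 reads, 20 reads and summed strands, and 0 to 3 leaving out libraries. For week 1 against NSC, dyads higher (1) were 6 with 5 reads, 0 with 20 reads and with the coverage limit, 2 with limma, 2 with only the groups compared and 8 summed, and 0 to 2 leaving out libraries. Dyads lower (0) were 3 with 5 reads, 2 with limma, 1 with only the groups compared and 3 summed, and 0 to 1 leaving out libraries. For week 1 against day 1, 1 dyad was higher with summed strands. The minimum of 5 reads tests more dyads, 16261, and that of 20 reads fewer, 285. Dyads at 40 points or more (6) were 19 and 1 with these minimums, 2 at a limit of 60 points, and 2 to 6 leaving out libraries. The causes of the other moves were not tested. With at least 5 reads the calls on both strands at the chromosome 10, chromosome 15 and all 4 chromosome 1 dyads were lost, with limma those at chr1:74468033, chromosome 10 and chromosome 15, and with the coverage limit that on chromosome 10 (larger adjusted p 0.0534). No paired analysis was possible because replicate numbers come from accession order. Depth left 497 of 1225 dyads covered in the shallowest library.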
